A study of Mus musculus with 9 samples.

Results

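The genes described here are 10 members of the mitogen-activated protein (MAP) kinase system, the p38 kinases Mapk11, Mapk12, Mapk13 and Mapk14, the upstream kinase Map3k8, and the phosphatases Dusp1, Dusp2, Dusp5, Dusp6 and Dusp10. They were taken by symbol from the 27179 genes counted in each library, and all 10 were found. The list was chosen by name with the measured Id2-null and WT differences of these same libraries already known. Which values were used for the choice is not recorded, so every genotype difference of a member is given as a description, with no p-value. Where the number of members past the call rule used for all genes is printed, it is a count from which nothing is read. Of the 10 members, 9 passed the filter on low counts in the cultures, and Mapk13 did not.

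RNA was sequenced from natural killer (NK) cells, the cytotoxic cells of innate immunity, from the spleen of C57BL/6 mice. Cells labelled Id2-null, which lack the helix-loop-helix protein ID2, and wild-type (WT) cells were cultured for 7 days in the cytokine interleukin-15 (IL-15), with 3 libraries of each genotype. The wild-type populations named Immature, M1 and M2 were sorted from spleen and not cultured, with 1 library each. The titles give genotype and replicate number, while the culture protocol refers to samples by their place in the list. The labels say neither how Id2 was deleted, how M1 and M2 were defined, nor whether replicates were separate mice, so their spread may be technical.

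The p38 kinases are activated by phosphorylation after stress and inflammatory signals and in turn phosphorylate other kinases, transcription factors and RNA-binding proteins. MAP3K8, also called TPL2 or COT, is a kinase that is held by the NF-kappaB precursor p105 and, once released, activates the MEK kinases upstream of ERK. Dual-specificity phosphatases (DUSPs) remove the activating phosphates from MAP kinases, and several of them are encoded by genes that MAP kinase signalling itself switches on. In NK cells these pathways are known to work downstream of activating receptors and of cytokines.

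Total counts per library ran from 4128414 to 4831831. Levels are CPM, counts divided by the library total after scaling by the trimmed mean of M values (TMM) over the 9 libraries, and a count of 0 allows a level of up to 0.621 to 0.727 CPM before this scaling (3 counts, counting error only). Id2 stood at 9.01 to 24.0 CPM in the 3 Id2-null libraries and at 376 to 409 CPM in the 3 WT cultures. The NK marker Ncr1 was at 377 to 689 CPM in the cultures and at 1448 to 2137 CPM in the sorted libraries. Xist, an RNA of female cells, was at 660 to 878 CPM in the Id2-null libraries and at up to 1.16 CPM in WT cultures, and the Y-linked Ddx3y was at up to 0.636 CPM and at 72.1 to 78.8 CPM. Sex and genotype therefore cannot be told apart in the cultures. All 10 members lie on autosomes, and the part of sex in their levels was not tested. In bulk RNA, fewer cells of a type and less RNA per cell cannot be told apart.

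Mapk11 and Mapk12 are the members with the largest genotype difference. They lie next to each other on the minus strand of chromosome 15, with 904 bases between the end of one gene and the start of the other in RefSeq (Mapk12 at positions 89130584 to 89141577 and Mapk11 at 89142482 to 89149606, GRCm38). The 250 bases before their annotated transcript starts are shown because the 2 genes differed together, and that of Dusp1 because its level separated sorted from cultured cells. The Mapk12 start in this table lies inside the RefSeq gene, 3' of its outermost end. All are from RefSeq on GRCm38.p6, read on the strand of the gene from 5' to 3'. Mapk12 covers chr15:89140704-89140953 on the minus strand, Mapk11 covers chr15:89149607-89149856 on the minus strand and Dusp1 covers chr17:26508473-26508722 on the minus strand. Capitals mark matches to 5 motifs.
Mapk12: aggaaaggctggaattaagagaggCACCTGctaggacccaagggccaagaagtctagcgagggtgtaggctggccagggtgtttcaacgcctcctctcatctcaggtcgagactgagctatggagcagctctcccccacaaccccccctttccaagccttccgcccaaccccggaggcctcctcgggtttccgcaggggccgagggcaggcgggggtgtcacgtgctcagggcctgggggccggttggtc
Mapk11: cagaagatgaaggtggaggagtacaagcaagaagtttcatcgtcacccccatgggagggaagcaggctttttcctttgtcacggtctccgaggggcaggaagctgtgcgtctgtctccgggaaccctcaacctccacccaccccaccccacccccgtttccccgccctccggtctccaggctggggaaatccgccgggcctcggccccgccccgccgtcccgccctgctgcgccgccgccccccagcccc
Dusp1: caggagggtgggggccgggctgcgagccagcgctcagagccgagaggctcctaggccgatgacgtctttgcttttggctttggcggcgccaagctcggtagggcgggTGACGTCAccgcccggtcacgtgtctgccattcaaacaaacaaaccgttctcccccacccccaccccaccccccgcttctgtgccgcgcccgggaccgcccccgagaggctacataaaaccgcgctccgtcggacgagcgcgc

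The motifs were searched on both strands of these windows. They were the E-boxes CAGCTG and CAGGTG, which E proteins bind when Id proteins do not hold them, the STAT motif TTCNNNGAA, the cAMP response element TGACGTCA and the AP-1 motif TGANTCA. Mapk12 held 1 CAGGTG E-box, read here as CACCTG, at 226 to 221 bases before the start, and 17.2% of 32851 promoter windows of the same length held this motif. The Mapk11 window held none of the 5 motifs. Dusp1 held 1 cAMP response element at 143 to 136 bases before the start, a motif in 1.55% of all windows. The E-box CAGCTG was in 13.0%, the STAT motif in 7.02% and the AP-1 motif in 6.75% of all windows, and none of the 3 was in these sequences. Their GC content was 64.4% for Mapk12, 68.0% for Mapk11 and 68.4% for Dusp1, against a median of 52.4% over all windows. Of the other members in the table, Mapk13 held 3 CAGGTG E-boxes and 1 of the 2 Mapk14 windows held 1 STAT motif, while Dusp2, Dusp5, Dusp6 and Dusp10 held none of the 5 motifs. A match is a description of the letters only.

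Mapk11, which encodes p38 beta, was present at low level in WT cultures and many times higher in Id2-null cultures. Its values were 46.9, 43.3 and 41.4 CPM in Id2-null replicates 1 to 3 and 4.39, 6.27 and 8.12 CPM in WT replicates 1 to 3. The lowest Id2-null library was above the highest WT library. The mean was 43.8 ± 2.80 CPM against 6.26 ± 1.86 CPM (SD, n = 3 each). The fitted difference was 2.80 (SE 0.22) on the log2 scale, or 6.98-fold. In the sorted libraries Mapk11 stood at 3.83 CPM in Immature (95% Poisson interval 2.14 to 6.31), 2.90 in M1 (1.5 to 5.06) and 1.25 in M2 (0.406 to 2.92). These 3 values lay below all WT cultures and far below the Id2-null cultures, and rested on 15, 12 and 5 counts.

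Mapk12, which encodes p38 gamma, showed the same separation. Its values were 39.4, 38 and 30.9 CPM in Id2-null replicates 1 to 3 and 2.72, 4.39 and 2.71 CPM in WT replicates 1 to 3, so the genotypes did not overlap. The mean was 36.1 ± 4.52 CPM against 3.27 ± 0.967 CPM (SD, n = 3 each). The fitted difference was 3.46 (SE 0.24) on the log2 scale, or 11.0-fold. Of the 11022 genes tested, 30 had a log2 fold change at least as high as that of Mapk12 and 48 at least as high as that of Mapk11, each count including the gene itself. Among sorted cells Mapk12 was highest in Immature at 9.44 CPM (6.65 to 13.0), with 3.38 CPM in M1 (1.85 to 5.67) and 2.0 in M2 (0.865 to 3.95).

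Mapk14, which encodes p38 alpha, the main p38 form of most cells, did not share this difference. It stood at 132.3, 140.4 and 125.2 CPM in Id2-null replicates 1 to 3 and at 140.9, 160.7 and 156.2 CPM in WT replicates 1 to 3. The Id2-null values all lay below the WT values, but the highest Id2-null library, at 140.4 CPM, nearly met the lowest WT library at 140.9 CPM. The log2 fold change was -0.20 (SE 0.11). In sorted cells Mapk14 was at 268, 264 and 270 CPM in Immature, M1 and M2, above all 6 cultures. Mapk13, which encodes p38 delta, had 0 counts in all 6 cultures, 1 count each in Immature and M1 and 0 in M2, so no level could be compared.

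Several marker lists also separated the genotypes. The summed level of 8 NK cell markers was 6902 to 7720 CPM in Id2-null and 9457 to 12613 CPM in WT cultures, and 1 of them, Gzma, was called by edgeR. The markers did not all follow the sum. Ncr1 and Il2rb had higher means in Id2-null cultures, at 598 and 3182 CPM against 476 and 2818 CPM, with overlap between genotypes. The summed level of 6 macrophage and monocyte markers was 4.51 to 11.0 CPM in Id2-null against 16.9 to 21.7 CPM in WT cultures, with Lyz2 and Adgre1 at 0 in all 6. That of 5 mast cell and basophil markers was 2.3 to 8.85 CPM against 12 to 30.5 CPM, with Fcer1a and Ms4a2 at 0. That of 5 stromal markers was 38.3 to 60.4 CPM against 138 to 167 CPM, with Cdh5 and Vcam1 at 0. Only 1 of the 5, Pecam1, passed the filter to be tested, and it was called. T cell markers overlapped between genotypes. The summed level of 7 T cell markers was 215, 326 and 180 CPM in Id2-null and 55.4, 207 and 53.2 CPM in WT replicates 1 to 3, with Cd4 at 0 in all 6, and 0 of 3 tested markers were called by edgeR. Those of B cells, at up to 1.77 CPM, and of neutrophils, at up to 0.221 CPM, were near 0 in all cultures. The part of these cell types in the values of Mapk11, Mapk12 and Map3k8 was not tested.

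The plot of kinase levels by library shows the gap between genotypes for Mapk11 and Mapk12 and its near absence for Mapk14.

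**Figure D1:**
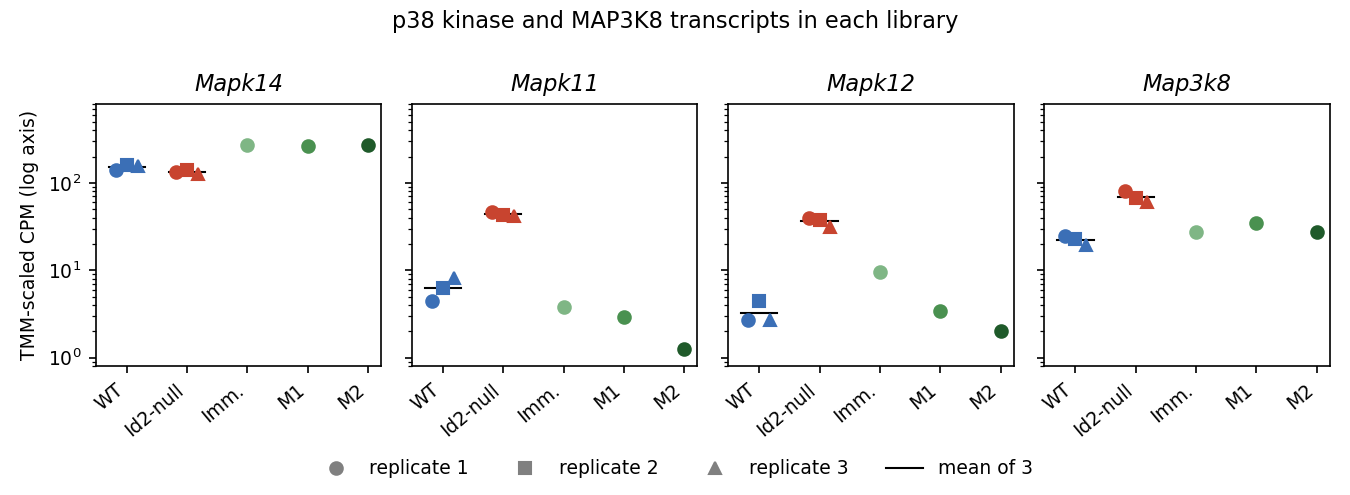
TMM-scaled CPM on a log axis for Mapk14, Mapk11, Mapk12 and Map3k8 in each library, with symbols for replicates 1 to 3 and a line at the mean of the 3 cultures. Mapk11, Mapk12 and Map3k8 are higher in all 3 Id2-null cultures than in any other library, while Mapk14 is highest in the sorted libraries.

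Expressed per length, as TPM (length-scaled transcript abundance with the same total in every library), the p38 genes can be set against each other. In WT cultures Mapk14 made up 92.0, 89.7 and 89.7% of the summed p38 TPM in replicates 1 to 3. In Id2-null cultures its share was 46.6, 49.5 and 49.8%, with a mean of 24.9 ± 1.11% for Mapk11 and 26.4 ± 1.60% for Mapk12 (SD, n = 3). The summed p38 TPM was 151 ± 1.22 in Id2-null and 93.8 ± 7.63 in WT cultures (SD, n = 3 each), and the groups did not overlap. The sorted libraries held Mapk14 shares of 91.3% in Immature, 95.7% in M1 and 97.8% in M2, with p38 sums of 133, 133 and 120 TPM.

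**Figure D2:**
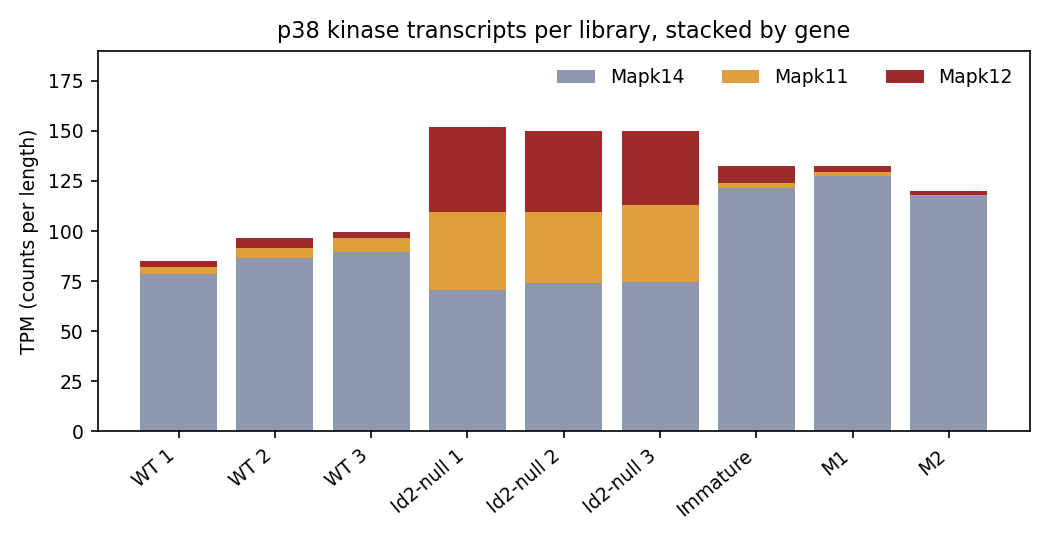
TPM of Mapk14, Mapk11 and Mapk12 stacked for each of the 9 libraries, with Mapk13 left out at 0.318 TPM or less. The Id2-null bars reach 150 to 152 TPM with near equal parts of Mapk11 and Mapk12, and the WT culture bars 85.2 to 99.8 TPM with Mapk14 as the main part.

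The genes around the Mapk11 and Mapk12 pair were looked at after these values were seen. Within 100 kb on either side RefSeq places 10 other genes of the files, of which 7 were tested. Of these 1, Plxnb2, was called, beside 3.36% of all genes tested in either direction. Plxnb2, a plexin receptor for semaphorins, is the next gene past Mapk11 (chromosome 15, 89155546 to 89182018). It had 22.1, 19.1 and 18.4 CPM in Id2-null and 4.18, 5.64 and 5.22 CPM in WT replicates 1 to 3, and rose. Its log2 fold change was 1.99 (SE 0.20), with an adjusted p of 0.0029 in edgeR. On the other side Hdac10, a histone deacetylase and the next gene past Mapk12, had 48.2, 54.9 and 31.3 CPM against 21.1, 25.7 and 27.8 CPM. It was not called (log2 fold change 0.85, adjusted p = 0.109, edgeR). The genotypes did not overlap, as for 20.4% of all genes tested, and 3 of 15 alternative fits called it. The other 5 tested neighbours had log2 fold changes between -0.00058 and 0.74 and were not called. Whether reads run from one of these genes into the next was not tested. Around Mapk13 and Mapk14 on chromosome 17, 2 of 4 other genes were tested and 0 called by edgeR, with log2 fold changes of -0.17 and 0.14.

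**Figure D3:**
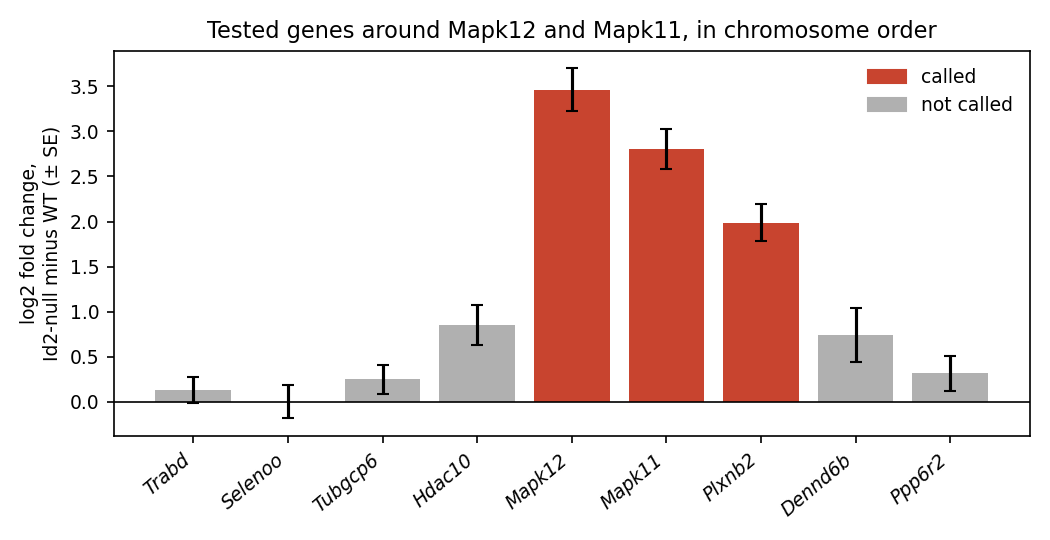
Log2 fold change, Id2-null minus WT, with its SE for the 9 tested genes within 100 kb of Mapk12 and Mapk11, in their order along chromosome 15 and not to distance. Mapk12, Mapk11 and Plxnb2 stand side by side at 3.46, 2.80 and 1.99. Hdac10, next to Mapk12 on the other side, is at 0.85, and the genes farther out are at 0.74 or less.

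Map3k8 was also higher without Id2. It stood at 79.6, 67.2 and 59.8 CPM in Id2-null replicates 1 to 3 and at 24.5, 23.0 and 19.5 CPM in WT replicates 1 to 3, with no overlap. The mean was 68.9 ± 10 CPM against 22.3 ± 2.53 CPM (SD, n = 3 each). The fitted difference was 1.63 (SE 0.16) on the log2 scale, or 3.10-fold. Sorted cells held 27.3 CPM in Immature (22.4 to 33.0), 34.8 in M1 (29.3 to 40.9) and 27.0 in M2 (22.2 to 32.6). These lay above the WT cultures and below the Id2-null cultures, though with library size alone as scaling they overlapped the WT cultures.

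In the fit over all genes, 3 of the 9 tested members were called, Mapk11, Mapk12 and Map3k8, all higher in Id2-null cells, where 1.84% of all genes tested were called higher and 3.36% in either direction. Since this contrast was known when the list was made, nothing is read from that count. The genotypes did not overlap for 4 members, Mapk14 among them, as for 20.4% of all genes tested.

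The phosphatases differed less between genotypes. Dusp1 encodes a nuclear phosphatase of p38, JNK and ERK and is an early response gene. It stood at 6.86, 7.85 and 1.23 CPM in Id2-null and at 10.9, 11.3 and 7.54 CPM in WT replicates 1 to 3, where the 2 groups overlapped and Id2-null replicate 3 rested on 6 counts. The log2 fold change was -0.89 (SE 0.53). Dusp2, a nuclear phosphatase of activated lymphocytes, was at 28.3, 18.5 and 45.7 CPM in Id2-null and at 59.8, 59.1 and 44.3 CPM in WT replicates 1 to 3. Id2-null replicate 3 reached into the WT range, and the log2 fold change was -0.81 (SE 0.31).

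Dusp5, a nuclear phosphatase of ERK, stood at 50.6, 58.1 and 31.3 CPM in Id2-null and at 83.0, 96.9 and 54.5 CPM in WT replicates 1 to 3. Each Id2-null library was below the WT library of the same number, although the groups overlapped, and the log2 fold change was -0.74 (SE 0.27). Dusp6, a cytoplasmic phosphatase of ERK, was at 248, 214 and 115 CPM in Id2-null and at 235, 220 and 134 CPM in WT replicates 1 to 3. The genotypes overlapped over most of their range, with a log2 fold change of -0.02 (SE 0.31). Dusp10, a phosphatase of p38 and JNK, was at 13.5, 13.2 and 11.1 CPM in Id2-null and at 9.41, 11.3 and 8.31 CPM in WT replicates 1 to 3, a log2 fold change of 0.38 (SE 0.21).

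No phosphatase was among the 3 members called. The count of members called was 4 with the replicate number as a block, adding Dusp5, where 6.31% of all genes were called. It was 4 without Id2-null replicate 3, adding Dusp2, where 5.56% of all genes were called, and 5 without replicate 3 of both genotypes, adding both, where 9.16% were. Nothing is read from these counts either. The log2 fold change of Dusp2 was -1.22 without Id2-null replicate 3 and -1.35 without replicate 3 of both genotypes, and that of Dusp5 was -0.72 without replicate 3 of both.

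Replicate 3 was the lowest of its genotype for Dusp1, Dusp5, Dusp6 and Dusp10 in both genotypes. For Dusp2 it was the lowest in WT and the highest in Id2-null cultures. Several genes of the ERK feedback list had the same low replicate 3 in both genotypes. Egr1, an early response transcription factor, was at 301, 157 and 44.3 CPM in Id2-null and at 284, 238 and 55.9 CPM in WT replicates 1 to 3. Ier3, an early response gene, was at 23.7, 15.9 and 4.51 CPM and at 38.7, 34.5 and 8.89 CPM. Others of the list did not share it. Egr2, a factor related to Egr1, was highest in replicate 3, at 20.1, 11.5 and 34.6 CPM in Id2-null and 14.4, 17.3 and 25.7 CPM in WT replicates 1 to 3. Lif and Phlda1 were highest in replicate 3 in Id2-null and lowest in replicate 3 in WT cultures. The part of these replicate differences in the phosphatase values was not tested.

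The levels of the phosphatases in freshly sorted cells were of another order for Dusp1 and Dusp2. Dusp1 stood at 303 CPM in Immature (286 to 320), 454 in M1 (434 to 475) and 448 in M2 (427 to 469), a mean 40.6 times that of the WT cultures. Dusp2 was at 220 CPM in Immature (206 to 236), 393 in M1 (374 to 412) and 543 in M2 (521 to 567), a mean 7.09 times that of the WT cultures. For a rank among 11068 genes with at least 5 CPM in any WT or sorted library, 0.5 CPM was added to each mean. By this ratio of sorted to WT culture means, 53 genes were at least as high as Dusp1 and 368 at least as high as Dusp2, with the gene itself counted.

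Dusp6 went the other way, at 58.9 CPM in Immature (51.6 to 67.0), 60.6 in M1 (53.3 to 68.6) and 51.8 in M2 (45.0 to 59.4), with WT cultures 3.44 times higher in the mean. Dusp5 was at 89.3, 107.7 and 97.4 CPM in Immature, M1 and M2 and overlapped the WT cultures. Dusp10 was at 18.1, 15.7 and 11.27 CPM and only just overlapped them, as WT replicate 2 stood at 11.28 CPM. With DESeq2 size factors as scaling it did not overlap.

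**Figure D4:**
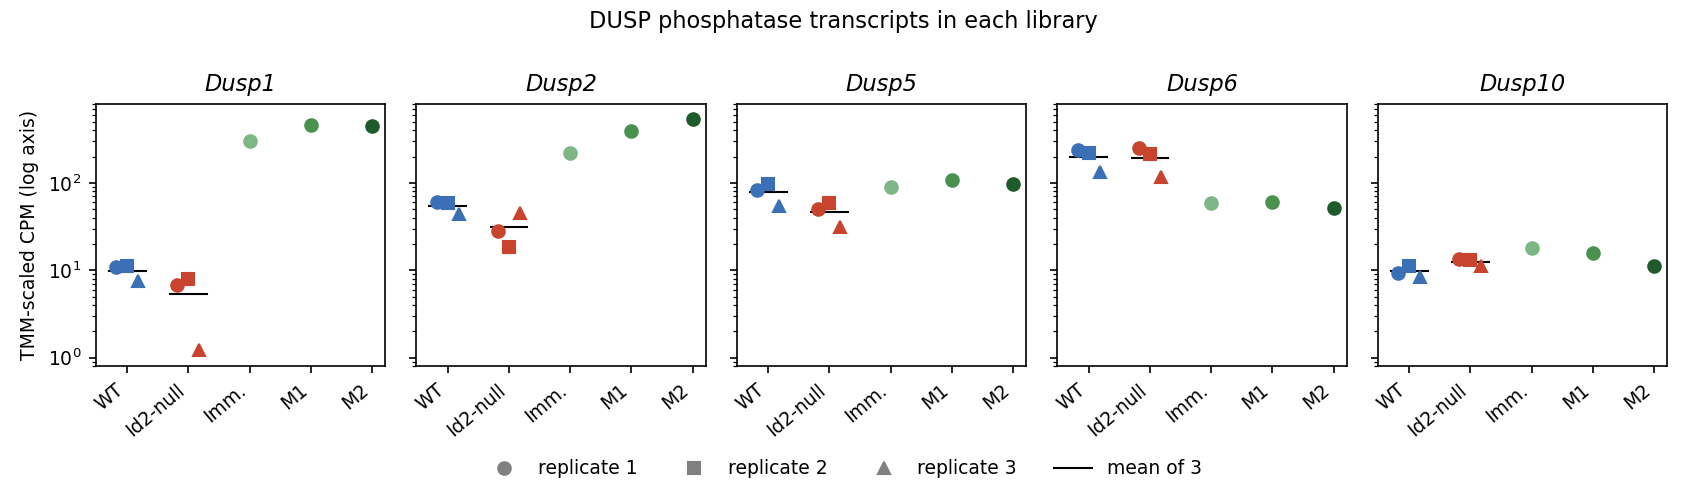
TMM-scaled CPM on a log axis for Dusp1, Dusp2, Dusp5, Dusp6 and Dusp10 in each library, with symbols for replicates 1 to 3 and a line at the mean of the 3 cultures. The sorted libraries lie far above the cultures for Dusp1 and Dusp2 and below them for Dusp6, and replicate 3 is the lowest in both genotypes for 4 of the 5 genes, all but Dusp2.

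Of 9 members compared, the WT cultures lay wholly above the 3 sorted libraries for Mapk11 and Dusp6, and wholly below them for Mapk14, Map3k8, Dusp1 and Dusp2. Over all genes 31.5% lay above and 35.0% below, 66.5% in all, so that 6 of 9 is near the share of all genes and no result about these members. The comparison has no test, because the sorted libraries are 3 populations and not replicates, and culture, sorting, library preparation and sex cannot be told apart. Xist was at 127, 114 and 90.4 CPM in Immature, M1 and M2 and Ddx3y at 37.1 to 46.3 CPM, so that each sorted library held RNA of both sexes, unlike the WT cultures. With library size alone as scaling the median ratio of all genes moved by -0.17 on the log2 scale.

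Other early response genes, chosen after their values were seen, did not share one direction between sorted and cultured cells. Fos, a subunit of the AP-1 factor, was at 1399, 2094 and 1603 CPM in Immature, M1 and M2, against 2.32 to 7.73 CPM in WT cultures. Jun, its partner, was at 527, 1014 and 589 CPM against 52.0 to 102 CPM. Egr1 did not follow, at 93.4, 153 and 113 CPM in Immature, M1 and M2, within the range of the WT cultures. Egr2, a related factor, was at 13.0, 15.4 and 10.01 CPM and overlapped the WT cultures at 14.4 to 25.7 CPM. Ier3 was at 2.81, 5.07 and 9.51 CPM, toward or below the low end of the WT cultures at 8.89 to 38.7 CPM.

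Markers of several other cell types were higher in the sorted libraries than in WT cultures. The summed level of 6 macrophage and monocyte markers was 129, 129 and 526 CPM in Immature, M1 and M2 against 16.9 to 21.7 CPM in WT cultures. That of 6 neutrophil markers was 88.3, 109.6 and 511 CPM in Immature, M1 and M2 against 0 in WT cultures, with 5 of the 6, S100a8, S100a9, Ngp, Ltf and Mmp8, at 0 in all cultures. That of 6 B cell markers was 59.7, 36.9 and 96.1 CPM in the same order against 0.627 to 1.05 CPM, with Ms4a1 and Pax5 at 0 in the cultures. Those of dendritic cells, at 38.5, 24.4 and 104 CPM against 11.8 to 51.6 CPM, and of T cells, at 526, 78.0 and 128 CPM against 53.2 to 207 CPM, overlapped the WT cultures. The part of these cells in the sorted levels was not tested. Without the M2 library, which held the highest of these sums but that of T cells, the same 6 members and Dusp10 did not overlap the WT cultures. Over all genes 7882 of 11068 then did not overlap, in place of 7356. Leaving out a library can only reduce overlap, so nothing is read from the added member.

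Between the sorted populations 8 members reached the 5 CPM in 1 of a pair that a ratio needs, Mapk12 not from M1 to M2. Mapk11, at 3.83, 2.90 and 1.25 CPM, and Mapk13 did not, so no ratio was taken for them. From Immature to M1, Mapk12 was the one member past 2-fold, 2.79 times higher in Immature (ratio of M1 to Immature 0.358, counting interval 0.179 to 0.678), and 6.18% of genes with at least 5 CPM passed 2-fold. From M1 to M2 no member passed, and 5.96% of genes did. From Immature to M2, Mapk12 was 4.71 times higher in Immature (ratio of M2 to Immature 0.212, interval 0.0854 to 0.463) and Dusp2 2.46 times higher in M2 (interval 2.28 to 2.67), where 12.3% of genes passed. Mapk14 stayed within a ratio of 0.985 to 1.02 for the 3 pairs. These libraries have no replicates, so the intervals cover counting error only, and the sums of other cell markers given above also differ between them. The summed T cell markers were highest in Immature, as was Mapk12, at 526 CPM against 78.0 CPM in M1 and 128 CPM in M2, and their part in the Mapk12 values was not tested.

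Compared per length, the order of the members differed between sorted and cultured cells. In WT cultures Dusp6 and Dusp5 led at 147 ± 38.4 and 142 ± 35.4 TPM (SD, n = 3), which did not differ beyond their spread. Mapk14 followed at 84.8 ± 5.72 TPM, then Dusp2 at 70.6 ± 9.87, Map3k8 at 18.7 ± 1.83, Dusp1 at 10.7 ± 1.96, Dusp10 at 7.48 ± 0.928, Mapk11 at 5.41 ± 1.72 and Mapk12 at 3.62 ± 0.962 TPM. The steps from Dusp10 to Mapk11 and from Mapk11 to Mapk12 were near their spread. In Id2-null cultures Map3k8 at 57.3 ± 6.13 TPM came after Dusp6, Dusp5 and Mapk14 in the mean. Dusp5 at 83.7 ± 20.3 and Mapk14 at 73.2 ± 2.09 TPM did not differ beyond their spread, nor did Map3k8 and Dusp2. Dusp2 at 40.7 ± 20.9, Mapk12 at 39.8 ± 2.67 and Mapk11 at 37.5 ± 1.83 TPM followed and did not differ beyond their spread, and Dusp10 and Dusp1 came last at 9.67 ± 0.441 and 5.56 ± 3.61 TPM. In Immature Dusp1 led at 267 TPM with Dusp2 at 234 TPM, and Dusp2 led in M1 and M2 at 443 and 552 TPM with Dusp1 at 427 and 379 TPM.

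Other MAP kinase genes were read from 10 lists that held none of the members. Of 116 genes tested, 3 rose and 2 fell in Id2-null cells, beside 3.36% of all genes tested in either direction. Their median log2 fold change was 0.02, against 0.01 over all genes. The fit with the replicate block called 12 of them, 6 in each direction, beside 6.31% of all genes.

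Upstream of p38, 14 genes were tested and 1 fell. That was Gadd45g, which binds and activates the p38 and JNK kinase MEKK4, at 27.0, 26.1 and 17.0 CPM in Id2-null and 73.6, 112.2 and 61.3 CPM in WT replicates 1 to 3 (log2 fold change -1.81, SE 0.27, adjusted p = 0.0131, edgeR). Downstream of p38, 1 of 14 fell. Mapkapk3, a kinase that p38 phosphorylates, was at 73.9, 71.5 and 77.8 CPM against 110.4, 116.6 and 113.8 CPM (log2 fold change -0.61, SE 0.10, adjusted p = 0.0182, edgeR). With the block Mef2c, a transcription factor that p38 phosphorylates, was higher as well (adjusted p = 0.0156, and 0.553 without the block, edgeR).

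In the ERK module 1 of 22 genes rose. Rasgrp2, an exchange factor that activates Rap1, was at 254, 249 and 99.8 CPM in Id2-null and 29.5, 38.9 and 24.9 CPM in WT replicates 1 to 3 (log2 fold change 2.70, SE 0.37, adjusted p = 0.00922, edgeR). With the block Rras2 and Rasa3 were higher too (adjusted p 0.0104 and 0.0396, and 0.0549 and 0.169 without it, edgeR).

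Of 14 tested genes of the ERK feedback and response list, 2 rose. Lif, a cytokine of the interleukin-6 family, was at 42.2, 38.8 and 45.9 CPM against 10.9, 15.9 and 9.08 CPM (log2 fold change 1.83, SE 0.22, adjusted p = 0.0051, edgeR). Spry2, an inhibitor of Ras to ERK signalling, was at 201, 198 and 166 CPM against 88.6, 121 and 109 CPM (log2 fold change 0.83, SE 0.15, adjusted p = 0.0251, edgeR). With the block Spry4 and Ier3 were lower (adjusted p 0.0489 and 0.0257, and 0.501 and 0.61 without it, edgeR).

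The size of these 5 differences changed little without WT replicate 1, at 1.76 for Lif, 2.65 for Rasgrp2, -1.89 for Gadd45g, -0.63 for Mapkapk3 and 0.71 for Spry2 on the log2 scale. None of the 5 was called with the libraries that remained (adjusted p 0.0515 for Lif, 0.0735 for Rasgrp2, 0.0586 for Gadd45g, 0.0811 for Mapkapk3 and 0.104 for Spry2, edgeR). Gadd45g was also lost without Id2-null replicate 1 or 2 (0.0566 and 0.0554), and leaving out Id2-null replicate 1, Id2-null replicate 2 or 1 of the WT libraries ended the calls of Mapkapk3 and Spry2 (0.058 to 0.109).

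The other 6 lists, with 52 genes tested, had 0 calls by edgeR, with 4 at unadjusted p under 0.05, 1 call by DESeq2 and 0 by limma voom. In the JNK module the 2 most abundant members, Jund and Map4k4, had log2 fold changes of 0.44 and 0.15 (adjusted p 0.436 and 0.663, edgeR). Among atypical MAP kinases Mapk6 had -0.42 (adjusted p 0.0851, and 0.0484 with the block) and Nlk 0.07. Of the partners of MAP3K8, Nfkb1, which encodes the p105 protein that holds it, stood at 405, 400 and 419 CPM in Id2-null and 271, 344 and 367 CPM in WT replicates 1 to 3 (log2 fold change 0.32, adjusted p = 0.34, edgeR). Tnip1 had 0.35. Of the other MAP kinase DUSPs, Dusp7 had -0.22 and Dusp16 0.11, Dusp4 was called lower with the block (adjusted p = 0.038, and 0.248 without it), and Dusp8 and Dusp9 were below the filter. Dusp11 and Ssh2 of the atypical DUSPs had 0.08 and 0.28, and the MAP kinase phosphatases Ptpn7 and Ptpn22 had -0.26 and 0.04. Of 13 atypical DUSPs tested, 2 had an unadjusted p under 0.05 (edgeR), Dusp14 lower and Dusp22 higher in Id2-null cultures. Their log2 fold changes were -2.15 and 0.39 (adjusted p 0.1 and 0.184, edgeR), and 3 of 15 alternative fits called Dusp14.

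Genes with the most similar pattern were taken by Pearson correlation of log2(CPM + 0.5) over the 9 libraries, among 11230 genes, for members whose log2 level ranged over at least 2. The points share libraries, depth and the split into cultured and sorted cells, so the values are a description. For Mapk11 they were Trgj1 (0.985), Tmem131l (0.984) and Gm19705 (0.981), and for Mapk12 Mcoln2 (0.976), Mavs (0.973) and Plcd3 (0.970). For Map3k8 they were Tg (0.979), Lax1 (0.974) and Foxo1 (0.965). Those of Dusp1 were Zdhhc7 (0.994), Sun2 (0.993) and Smpdl3a (0.993), and those of Dusp2 Gpatch2l (0.995), Csgalnact2 (0.993) and Gopc (0.992). Those of Dusp6 included Lss (0.996), which encodes an enzyme of cholesterol synthesis, and Hk2 (0.992), which encodes a hexokinase. Among the members themselves the highest correlations were those of Mapk14 with Dusp1 at 0.980 and with Dusp2 at 0.931. Mapk11 and Mapk12 correlated at 0.91, Map3k8 with Mapk12 at 0.912 and with Mapk11 at 0.816, and Dusp1 with Dusp2 at 0.911. The lowest was that of Dusp6 with Dusp2 at -0.886.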

How the data were processed

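Per the file headers, each of the 9 deposited files gives unnormalized read counts by Entrez identifier, with the length of each gene. Per the submitters' processing notes the reads were aligned to GRCm38 (mm10) with Subread and counted with featureCounts, and limma was also named. Their versions, annotation, strand setting and treatment of reads with several matches were not given in the sources used here. RefSeq (GRCm38.p6) named 25275 of 27179 identifiers.

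The 6 cultures entered edgeR 4.0.16 (R 4.3.3) with 11022 genes kept by filterByExpr (minimum count 10), with TMM scaling, genotype alone and the quasi-likelihood test. Genes were called at a Benjamini-Hochberg adjusted p under 0.05 over all of them. SE is the log2 fold change over the root of F. Levels use TMM over 9 libraries, TPM the file's lengths. Sorted libraries have exact Poisson or Clopper-Pearson 95% intervals and no test. DESeq2 1.42.0, limma 3.58.1 voom, other scalings, no filter, all libraries, left-out replicates, a replicate block and robust dispersion (added after seeing the data) were alternatives.

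Same-numbered libraries deviated together (correlations 0.352, 0.241 and 0.417), so the block is given where it changes a call. Replicates 1 and 2 of unlike genotype also correlated (0.189 and 0.136), while pairs of replicate 3 with 1 or 2 were at -0.397 to -0.261. The labels do not say what a number shares. Members, lists and motifs were chosen with earlier results of these data known. The text names all members, up to 4 called genes per list or the 2 most abundant of a list without calls, and the 3 most similar genes, of which 1 is not reported here. All other named genes were chosen after their values were seen. The Map3k8 promoter and protein sequences are not used here.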

Additional observations from a re-analysis of the deposited data

How the results depend on the processing

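Over all genes, 370 were called, 203 higher and 167 lower. DESeq2 called 580, 316 and 264, the replicate block 696, 371 and 325, and the fit without replicate 3 of both genotypes 1014, 539 and 475. Leaving out 1 library gave 105 to 624 in all, 58 to 367 higher and 47 to 257 lower. The count of members called, from which nothing is read, was 3, and 5 without replicate 3 of both genotypes. The 5 pathway genes called, 3 higher and 2 lower, became 8 with DESeq2, 5 of them higher, 12 with the replicate block, 6 each way, and 14 without replicate 3 of both, 7 each way. Leaving out 1 library gave 0 to 10 in all, 0 to 6 higher and 0 to 4 lower. Of the other 225 fold changes of single genes, 202 kept direction and side of the threshold, 15 lost the call, 4 gained it, and 4 turned sign, all for Dusp6. Dusp6 was at 0.024 without replicate 3 of both genotypes and at up to 0.24 with 1 library left out, at -0.24 at the lowest. The blocked fit changed no member call but that of Dusp5.

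Between sorted libraries, a 1.5-fold threshold gave 1708, 1536 and 2781 genes from Immature to M1, M1 to M2 and Immature to M2, in place of 624, 604 and 1271, and 3 members from Immature to M1 in place of 1 (Mapk12, Dusp1 and Dusp2). Asking for 10 CPM gave 396 and 367 genes for the first and second pair, 0 members for the first, and 1 (Dusp2) in place of 2 for the third. The 6 members that did not overlap between WT cultures and sorted libraries were 5 to 8 in the other settings. Over all genes 7347 to 8051 did not overlap in these settings, in place of 7356, and nothing is read from the member counts. Depth limits Mapk13 and the sorted levels of Mapk11 and Mapk12, which rest on 5 to 37 counts.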
